A study of Mus musculus with 12 samples.

Results

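Mouse embryos injected with an antisense morpholino against Oct4 (Oct4-MO) were compared with their own uninjected embryos at the 2-cell stage. The comparison rests on 6 of the 12 arrays of the series, 3 of Oct4-MO embryos and 3 of uninjected embryos, chosen by their sample titles and paired by the number in them. The other 6 arrays are of embryos injected with a morpholino against cyclin A2 (Ccna2-MO) and of its own uninjected embryos. All embryos came from wild type F1 (C57BL6xDBA/2) females, 3 to 5 weeks old, that were superovulated and mated with wild type males. Pronuclear embryos were recovered 17 h after human chorionic gonadotropin (hCG) from pools of 3 to 6 females and received 0.6 mM of the oligonucleotide, directed at the start of Oct4 translation, in their cytoplasm. Uninjected embryos were drawn from the same pool and kept alongside, and both were collected 43 h after hCG. The labels give 0.6 mM for Ccna2-MO too, whereas the study's methods give it a higher concentration than Oct4-MO, so the doses of the morpholinos may differ. Each array held RNA of 20 embryos, and the amount of 10 embryos entered 2 rounds of amplification, so no array shows a single embryo. The controls received no oligonucleotide, so an effect of injection and an effect of the block of Oct4 cannot be told apart in these 6 arrays.

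Oct4, the product of Pou5f1, is a POU-domain transcription factor that binds an octamer sequence in DNA and is best known for keeping embryonic stem cells and the inner cell mass pluripotent. Its transcript is already present in the egg. Around the 2-cell stage the mouse embryo removes maternal transcripts and starts to transcribe its own genome, so transcripts of either origin are on these arrays. A morpholino covers the start of translation on an mRNA, and the level of that mRNA is no check of the block. Values are normalized array intensities, given as deposited, and differences are between means of log2(value + 16). Pou5f1 was at 2289, 1825 and 2466 on the Oct4-MO arrays and at 1798, 1859 and 2112 on the uninjected arrays. The groups overlapped, with a log2 difference of 0.18 (standard error 0.13, adjusted p = 0.77, limma).

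The 6 arrays had median values of 23.7 to 25.5, and 39.3 to 41.2% of their probe sets lay under 16, where a difference is hard to measure. All 8 measured markers of the egg and 2-cell embryo reached 100 on an array, and Dppa3 among them was at 5353, 4808 and 5228 in Oct4-MO embryos. The 12 measured markers of cumulus cells, which surround the egg, summed to 617 to 874 in Oct4-MO embryos and 643 to 702 in uninjected embryos, and Foxl2, Inha, Inhba and Fshr were under 16 on all 6 arrays. Cyp11a1 of this list, the first enzyme of steroid synthesis, was at 258, 292 and 442 against 108, 178 and 106, higher without overlap (1.24, adjusted p = 0.51). Amhr2, with the highest control values of the list, overlapped, at 475, 189 and 252 against 486, 363 and 407. Of the 12 cumulus markers, 3 were higher and 2 lower without overlap. The 10 sperm markers summed to 408 to 458 in Oct4-MO embryos and 340.4 to 348 in uninjected embryos, without overlap. Prm1, the sperm protamine with the highest values, was at 212, 225 and 260.5 against 159, 182 and 139.7, and Prm2, another protamine, went the other way, at 18.5 ± 3.28 against 33.4 ± 9.66 (SD, n = 3), without overlap. Smcp and Gapdhs were under 16 on all 6 arrays. The 10 oviduct markers (945 to 1236 against 1124 to 1386) and the 9 blood markers (236 to 529 against 157 to 336) overlapped between the groups. The ratio of the 3′ to the 5′ control probe set of Gapdh, a sign of RNA integrity and of amplification, was 2.80 to 5.94 in Oct4-MO and 2.97 to 3.84 in uninjected embryos. That ratio overlapped for Actb too, but for Tfrc it was 0.695 to 1.47 against 0.582 to 0.686, and Tfrc itself is among the lower genes described under transport. Whether any of these took part in the differences below was not tested.

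Few genes passed the test in Oct4-MO embryos. The test picked them for their difference on these arrays, so their distance from the controls is no further evidence. Of 44937 probe sets, 13 rose (0.0289%) and 20 fell (0.0445%) at an adjusted p under 0.05 in limma, a linear model that borrows the estimate of the spread across genes and arrays. They stand for 8 named genes that rose, 15 named genes that fell, and 5 probe sets without a single gene symbol. All 13 that rose and 19 of the 20 that fell lay outside the values of all 6 uninjected arrays of the series, as did 4.2 and 4.74% of all probe sets. The exception was the dim unnamed probe set that fell. Every one of the 33 changed in the same direction in each of the 3 pairs. The difference, on the log2(value + 16) scale, was at least 2-fold in all 3 pairs for 10 of the 13 and 16 of the 20. Their median log2 difference was 1.96 for those that rose and -1.93 for those that fell. In arrays of pooled embryos, a change in some embryos and a smaller change in each embryo cannot be told apart. RNA of cells carried along with the embryos cannot be told apart from theirs either. At an unadjusted p under 0.05 there were 1874 higher (4.17%) and 2287 lower (5.09%) probe sets.

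**Figure D1:**
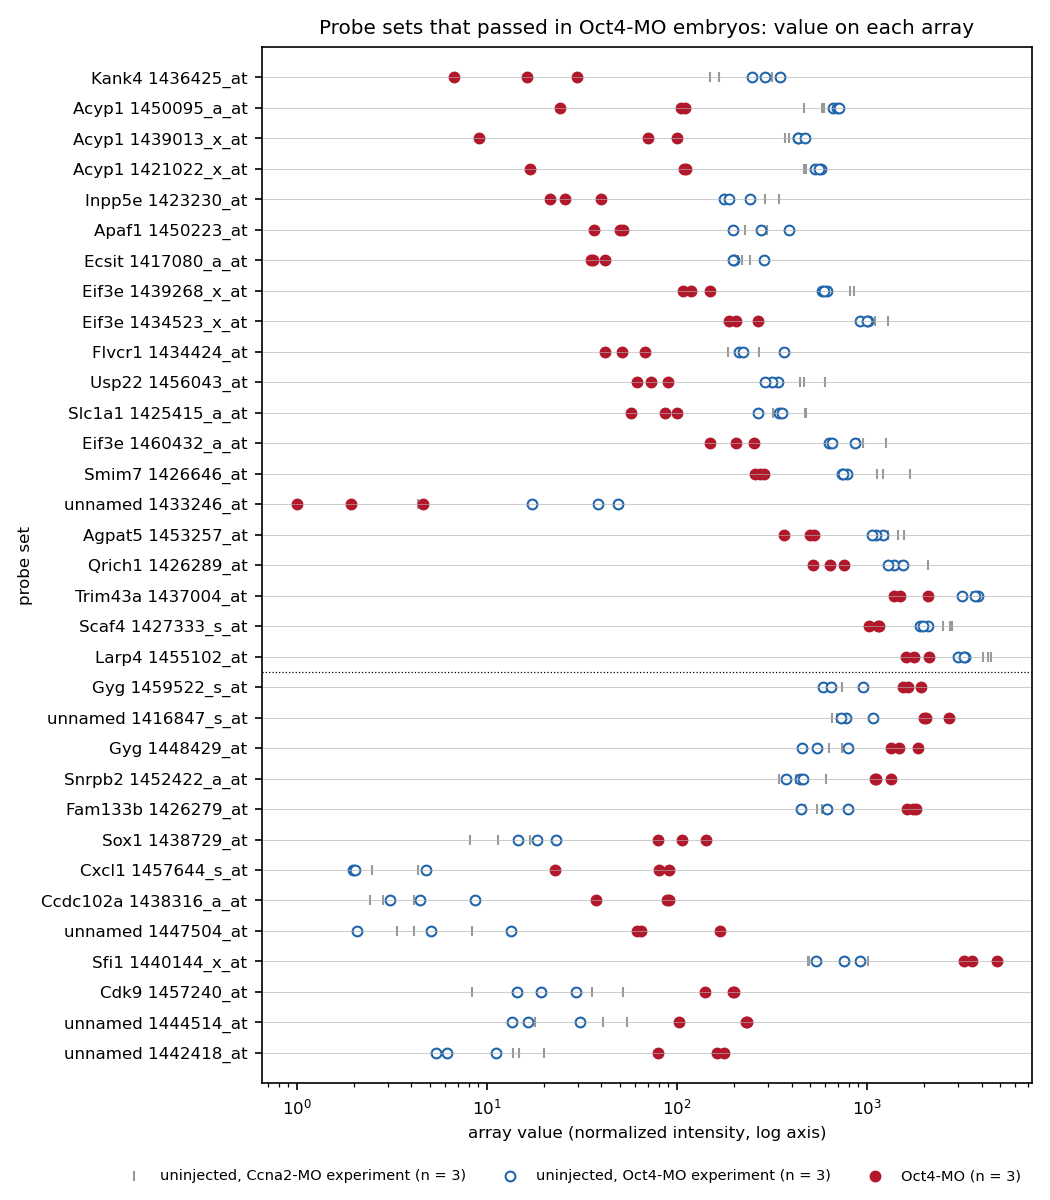
Value of each probe set that passed in Oct4-MO embryos on each array (horizontal log axis, normalized intensity), with the 3 Oct4-MO arrays as filled circles, their 3 uninjected arrays as open circles and the 3 uninjected arrays of the Ccna2-MO experiment as grey ticks. Filled circles lie to the left of the open circles in the upper 20 probe sets and to the right in the lower 13, and the values span from 1.00 for the unnamed probe set that fell to 4819 for Sfi1.

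The count of 33 depended on single arrays. It was 39, 5 and 19 when Oct4-MO array 1, 2 or 3 was left out, and 0, 13 and 0 when uninjected array 1, 2 or 3 was left out. None of the 33 calls was therefore kept without uninjected array 1 or without uninjected array 3, although all 33 kept their direction. Because all 12 arrays share the estimate of the spread, arrays of the other experiment moved the count too, to 49, 87 and 29 without a Ccna2-MO array and to 2, 14 and 10 without one of its uninjected arrays. A fit of only the 6 arrays of the Oct4-MO experiment gave 0. With the pair of collections as a block in the fit, 4 probe sets passed, namely Sfi1, Trim43a and a pair of probe sets of Eif3e, each with an adjusted p of 0.0496. The blocked adjusted p of the other 29 lay above the threshold and reached 0.14. The study lists 3 experiments for these chips, but neither it nor the labels say that the 3 collections fell on separate days. The tests therefore measure the spread between these pools of embryos.

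**Figure D2:**
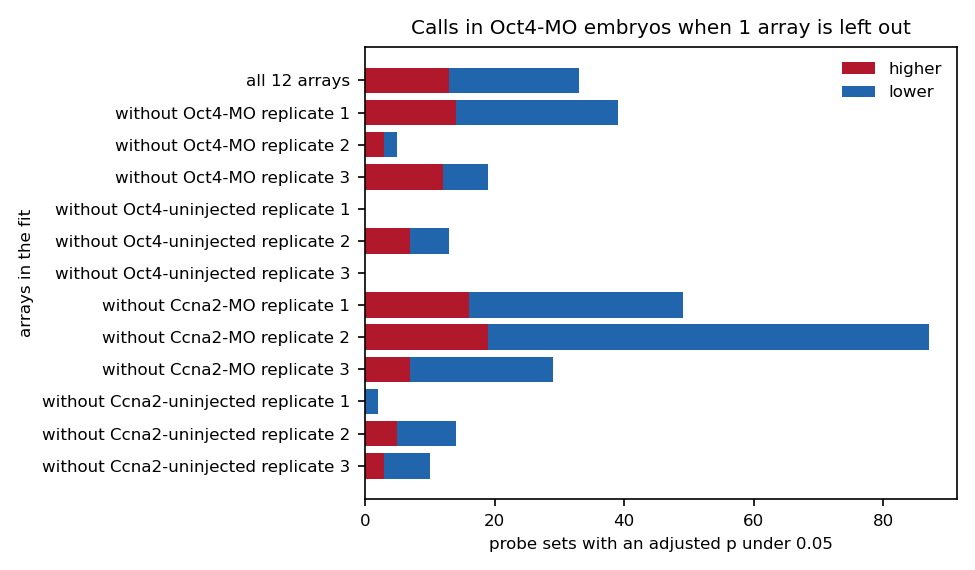
Number of probe sets with an adjusted p under 0.05 in Oct4-MO embryos (horizontal axis), higher and lower, with all 12 arrays and with each array left out in turn. The bar is empty without uninjected array 1 or 3 of the Oct4-MO experiment and longest, at 87, without Ccna2-MO array 2.

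Eif3e, a subunit of the initiation factor that places the small ribosomal subunit on mRNA, fell on 3 of its 4 probe sets. On its brightest probe set it was at 203, 187 and 267 in Oct4-MO embryos and at 1013, 919.7 and 999 in uninjected embryos. The groups were far apart, with a fall of 2.09 in log2 units (standard error 0.23, adjusted p = 0.017). The 2 further probe sets that fell had log2 differences of -2.13 and -1.76 (adjusted p = 0.012 and 0.039), and the fourth was under 16 on all 6 arrays. Larp4, an RNA-binding protein that stabilizes mRNAs through their poly(A) tails, was at 2109, 1592 and 1770.3 against 3283, 2999 and 3238, the smallest of the differences that passed (-0.80, adjusted p = 0.029, and 0.078 when blocked). Scaf4, which binds the tail of RNA polymerase II and acts at the ends of transcripts, was at 1024, 1161 and 1136 against 2097, 1887 and 1969 on the probe set that passed (-0.83, adjusted p = 0.029, and 0.078 when blocked). Larp4 and Scaf4 stayed over 1000 on every Oct4-MO array.

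Apaf1, Ecsit and Acyp1 fell to low values. Apaf1, the scaffold on which caspases are activated after cytochrome c leaves the mitochondrion, was at 36.5, 51.7 and 50.0 in Oct4-MO embryos and at 278, 197 and 389 in uninjected embryos. The highest Oct4-MO array lay well under the lowest control, and the log2 value fell by 2.25 (standard error 0.33, adjusted p = 0.036, and 0.083 when blocked). Ecsit, a protein of Toll-like receptor signalling and of respiratory complex I assembly, was at 36.0, 35.1 and 41.8 against 287, 199.7 and 198 and fell by 2.17 (adjusted p = 0.021, and 0.078 when blocked). Acyp1, an enzyme that hydrolyses acylphosphates, fell on all 3 of its probe sets. The brightest of them read 24.1, 104 and 109 in Oct4-MO embryos and 658, 692 and 706 in uninjected embryos, a log2 difference of -3.05 (adjusted p = 0.021, and 0.078 when blocked). Oct4-MO array 1 was the lowest on all 3 probe sets of Acyp1, and the uninjected arrays were close together.

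Genes of membranes, transport and signalling that fell included the largest decrease. Kank4, an ankyrin-repeat protein that acts on the actin cytoskeleton, was at 29.6, 6.72 and 16.2 in Oct4-MO embryos and at 346, 291 and 248 in uninjected embryos. A pair of the Oct4-MO arrays were thus near or under 16, where the size of the difference (-3.26, standard error 0.44) depends on the amount added before log2 (adjusted p = 0.029, and 0.080 when blocked). Inpp5e, a phosphoinositide phosphatase of the primary cilium, was at 25.8, 21.3 and 40.0 against 241, 177 and 187 (-2.28, adjusted p = 0.035, and 0.078 when blocked). Slc1a1, a transporter of glutamate and aspartate, was at 86.8, 56.9 and 100.4 against 342, 268 and 358 (-1.81, adjusted p = 0.045, and 0.078 when blocked). On the probe sets that passed, the values of these 3 genes did not overlap between the groups. The other Inpp5e probe set went the other way with overlap, at 55.2, 137 and 132 against 49.5, 83.7 and 60.1 (0.57, adjusted p = 0.87). The other 2 of Slc1a1 were dim and overlapped (-0.09 and -0.83). Flvcr1, described as a heme exporter, fell on a dimmer probe set from 365, 211 and 223 to 51.5, 68.1 and 41.9 (-1.99, adjusted p = 0.037, and 0.10 when blocked), while its brightest probe set overlapped between the groups (0.52). Agpat5, an acyltransferase of phospholipid synthesis, and Smim7, a small membrane protein, fell by 1.27 and 1.43 (adjusted p = 0.045 and 0.045, and 0.098 and 0.14 when blocked). Smim7 was among the most even of all, at 286, 256 and 272 against 783, 736 and 749.

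Nuclear regulators that fell were Usp22, Qrich1 and Trim43a. Usp22, the ubiquitin protease of the SAGA coactivator, was at 61.3, 89.9 and 72.6 in Oct4-MO embryos and at 339.8, 314 and 288 in uninjected embryos on the probe set that passed (-1.87, adjusted p = 0.045, and 0.10 when blocked). Its brightest probe set went the same way without passing, at 470.1, 134 and 91.4 against 877, 673 and 719 (adjusted p = 0.29). Qrich1, a glutamine-rich nuclear protein, was at 639, 517 and 757 against 1387, 1283 and 1541 (-1.13, adjusted p = 0.047, and 0.078 when blocked). Trim43a, of a family of similar gene copies that are expressed in the early embryo and that a probe set may not tell apart, was the brightest that fell. It was at 2079.6, 1376 and 1494 against 3822, 3156 and 3687 (-1.12, adjusted p = 0.022) and passed with the block too. On all probe sets of these 3 genes the groups were apart. Further probe sets of the genes that fell did not pass. Apaf1 (-0.69), Scaf4 (-0.60) and Larp4 (-0.46) each had 1 that was lower without overlap, and overlap was seen on others of Larp4 (-0.20), Scaf4 (-0.24), Agpat5 (-0.31 and -0.04) and Smim7 (-0.35).

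Sfi1, which binds centrin at the centrosome, was the brightest of the genes that rose. It was at 4819, 3225 and 3559 in Oct4-MO embryos and at 756, 537 and 921 in uninjected embryos, 5.24-fold higher by the group means (log2 difference 2.38, standard error 0.33, adjusted p = 0.034). The probe set belongs to the class that the manufacturer marks with an x because some of its probes can bind other transcripts, and 2 of the Eif3e and 2 of the Acyp1 probe sets belong to it too. Some genes named elsewhere that did not pass were also read on such probe sets, among them Mcm5, Sdhc, Hes5, Amhr2 and Prm1. A further Sfi1 probe set, dim and without that mark, read 46.8, 20.7 and 13.9 against 85.5, 41.2 and 29.5 and did not pass (-0.65, adjusted p = 0.72). The rise of Sfi1 thus rests on the marked probe set.

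Gyg, glycogenin, which primes glycogen synthesis, rose on both of its probe sets. The brighter one read 1636, 1538 and 1913 in Oct4-MO embryos and 587, 955 and 642 in uninjected embryos (1.23, adjusted p = 0.035, and 0.083 when blocked), and the other had a log2 difference of 1.38 (adjusted p = 0.039, and 0.10 when blocked). Uninjected array 2 was the highest control for Gyg, and pair 2 had the smallest difference on both probe sets. Fam133b was at 1799, 1735 and 1624 against 447, 794 and 612 (1.49, adjusted p = 0.035, and 0.078 when blocked), again with uninjected array 2 as the highest control, while its other 2 probe sets were dim and overlapped. Snrpb2, a protein of the U2 small nuclear ribonucleoprotein that recognizes the branch point of introns, was at 1101, 1113 and 1329 against 444, 373 and 459 on the probe set that passed (1.44, adjusted p = 0.048, and 0.12 when blocked). Its brightest probe set had a log2 difference of 0.98 and no overlap, without passing (adjusted p = 0.13).

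The remaining genes that rose came from a low level in the controls. Sox1, a transcription factor of the neural lineage that pairs with POU factors on DNA, was at 142, 106 and 79.5 in Oct4-MO embryos and at 18.3, 14.5 and 23.0 in uninjected embryos on the probe set that passed (1.83, adjusted p = 0.031, and 0.10 when blocked). Its other probe set was far under 16, at 1.56, 4.13 and 1.09 against 1, 1 and 1, and did not pass (0.10, adjusted p = 0.77). Of the genes that passed and have a promoter sequence from RefSeq (GRCm38.p6, 250 bases before to 50 after the start of transcription), 1 of 7 that rose and 0 of 12 that fell hold the octamer ATGCAAAT or its reverse complement ATTTGCAT. That gene is Sox1, and the stretch around the octamer, in capitals, is printed because the octamer is the textbook site of POU factors. It lies on the plus strand at chr8:12395526-12395555, and the octamer begins 18 bases after the start of transcription, so it lies in the transcribed part.
Sox1: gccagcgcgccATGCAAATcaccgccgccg
Of all 32851 promoter windows 1.74% hold the octamer, and of 14426 genes on the array with a window 1.68%, so the 1 match describes Sox1 and says nothing on binding. Cxcl1, a chemokine that attracts neutrophils, was at 22.9, 80.3 and 90.9 against 1.97, 4.77 and 2.02 on the probe set that passed (1.96, adjusted p = 0.045, and 0.083 when blocked), and its other 2 probe sets also lay higher without overlap (1.66 and 1.36). Ccdc102a, a coiled-coil protein, was at 88.9, 90.5 and 37.4 against 3.07, 8.66 and 4.42 (1.99, adjusted p = 0.022, and 0.078 when blocked). Its other 2 probe sets were dim and overlapped (log2 difference 0.04 on the brighter of them). On the probe sets of Cxcl1 and Ccdc102a that passed, all control values were under 16, the amount added before log2, so the log2 differences understate the change.

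Cdk9, the kinase that releases paused RNA polymerase II, gave opposite readings on its pair of probe sets. The dim one rose from 14.3, 19.1 and 29.4 to 139.6, 199.9 and 196 (2.40, adjusted p = 0.045, and 0.078 when blocked). The bright one, which represents the gene in the lists that follow, was at 2582, 1961 and 1855 against 3086, 2756 and 3325 and did not pass (-0.53, adjusted p = 0.14). No direction is therefore given for Cdk9 as a gene. Of the 4 probe sets without a single gene symbol that rose, 3 were under 31 on every uninjected array, with log2 differences of 2.23 to 2.66, and 1 was bright, with 1.37.

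A description by size, without a test, took probe sets with a mean of at least 500 in one group, a difference of at least 2-fold in each pair and no overlap. Of 4885 bright enough in either group, 14 were higher (0.287%) and 52 were lower (1.06%), and 8 of the 52 and 3 of the 14 had passed the test. Tmppe, a metallophosphoesterase, had the largest difference in this description, at 426, 169.6 and 51.3 against 1713, 1708 and 1919 (-3.34, adjusted p = 0.099). The Oct4-MO arrays of Tmppe differed by more than 8-fold among themselves, whereas its controls were nearly equal. Klf9, a Krüppel-like transcription factor, was at 126, 325 and 265 against 1414, 1074 and 1024 (adjusted p = 0.14), and Jmy, a p53 cofactor that nucleates actin, at 291, 233 and 287 against 1194, 1061 and 1111 (adjusted p = 0.063). Sirt1, a protein deacetylase, was at 159.8, 123 and 183 against 552, 431 and 568 (adjusted p = 0.066). Among these 3 genes Jmy was the most even over its Oct4-MO arrays. Further genes on the lower side were Dpm1, which supplies mannose for glycosylation, and the lysosomal protease Ctsb, at 726, 401 and 414 against 1481, 1297 and 1599. Eif3c, another subunit of the factor of Eif3e, was there on a dimmer probe set (475, 206 and 253 against 1109, 888 and 785, adjusted p = 0.079). Its brightest probe set was also lower, at 1574, 898 and 884 against 3064, 2464 and 3091 (-1.39, adjusted p = 0.063). That one fell by less than 2-fold in pair 1 and is outside the description.

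On the higher side of the same description, Jun, a subunit of the AP-1 transcription factor, had the largest difference, at 824, 581 and 437 in Oct4-MO embryos and 74.8, 119 and 26.6 in uninjected embryos (2.92, adjusted p = 0.12). The controls of Jun were low and uneven, and the groups did not overlap. Blcap, a small protein linked to apoptosis, was the most even, at 1031, 971 and 1005 against 399, 456 and 429 (1.20, adjusted p = 0.084). Bcl2l1, which encodes the survival protein Bcl-xL, was at 527, 820.1 and 528 against 148, 335 and 178 (1.49, adjusted p = 0.090). Dnal4, a light chain of dynein, and Sdhc, a membrane subunit of succinate dehydrogenase, had log2 differences of 1.68 and 1.83 (adjusted p = 0.087 and 0.41). No probe set was over 100 on all 3 arrays of one group and under 16 on all 3 of the other, in either direction.

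The balance of higher and lower values varied with brightness. Over all probe sets the groups did not overlap for 3703 higher (8.24%) and 3775 lower (8.4%). With the probe sets in 4 classes of equal size by brightness, 6.12% of the dimmest were higher and 4.17% lower without overlap, and of the brightest class 10.6% were higher and 16.1% lower. Of the 20 probe sets that fell, 18 were in the brightest class, and of the 13 that rose, 6. The median standard deviation of log2 values in that class was 0.297 among Oct4-MO arrays and 0.221 among uninjected arrays. The median difference there was -0.08, against 0.01 for the dimmest class.

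**Figure D3:**
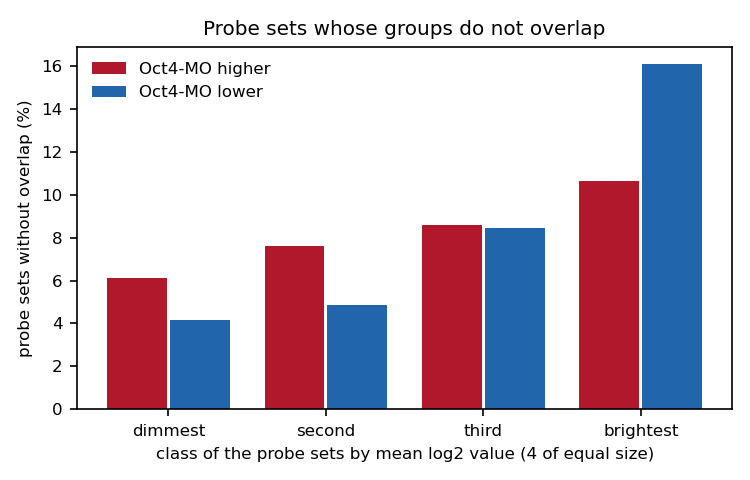
Share of probe sets whose Oct4-MO and uninjected arrays do not overlap (vertical axis, percent), in 4 classes of equal size by mean log2 value, separately for higher and lower. The higher share exceeds the lower in the dimmest class (6.12 against 4.17%), and the lower exceeds the higher in the brightest (16.1 against 10.6%).

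Gene lists were then described on the brightest probe set of each of 18163 genes, beside all genes, of which 9.21% were higher and 9.57% lower without overlap, with 48.5% below 0 and a median log2 difference of 0.01. For the 11417 genes with a probe set in the brighter part the shares were 10.3 and 12.5% and the median -0.02. In the brightest class of probe sets above they were 10.6 and 16.1%, and the lists differ in brightness. Of all genes, 5 rose (0.0275%) and 12 fell (0.0661%) on their brightest probe set, so every pathway list holds at most 1 of them in a direction. The lists are therefore described by counts at an unadjusted p under 0.05, which 847 genes (4.66%) passed on the higher side and 1083 (5.96%) on the lower, and by counts without overlap. No test compared a list with other genes. Genes named in the paragraphs on lists had all 3 Oct4-MO arrays on 1 side of the 3 uninjected arrays, except where an overlap is stated.

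Initiation factors, ribosome biogenesis genes and cytosolic ribosomal proteins lay mostly on the lower side. Elongation and termination factors did not, with 8 of 18 below 0 and a median of 0.02. Of 41 initiation factors, Eif3e fell, 12 were lower and 1 higher with an unadjusted p under 0.05, and 14 (34.1%) were lower without overlap. Their median was -0.22, and -0.07, -0.37 and -0.13 in the 3 pairs. Eif4e, which binds the cap of mRNA, was at 2313, 1828 and 2132 against 3207, 2801 and 3286 (-0.57, adjusted p = 0.090), and Eif3d, a further subunit of the Eif3e complex, at 88.0, 121 and 119 against 294, 352 and 339.7 (-1.47, adjusted p = 0.13). Of 89 genes of ribosome biogenesis, which process ribosomal RNA and assemble subunits, none passed, and 80 lay below 0, with 23 lower (25.8%) and 0 higher without overlap. Their median of -0.37 was the lowest of the pathway lists. Dkc1, the pseudouridine synthase of ribosomal RNA, was at 1425, 1570.4 and 1471 against 2308, 2392 and 2968 (-0.77, adjusted p = 0.12), and Wdr36 and Utp20, of the small subunit processome, had log2 differences of -1.23 and -1.27. Of 45 cytosolic ribosomal proteins, none passed and 39 lay below 0, with a median of -0.27, whereas of 68 mitochondrial ones 34 lay below 0, with a median of -0.0022. Pair 2 had the lowest median in the initiation factors, the cytosolic and the mitochondrial ribosomal proteins.

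Genes of transcription and RNA processing were also more often lower. Nearly all are in the brighter part, and of all probe sets in the brightest class 16.1% were lower without overlap. In the lists of this paragraph that share was 27.2% (splicing), 31.4% (Mediator and elongation), 19.7% (polymerases and general factors), 21.4% (polyadenylation and decay) and 22.7% (proteasome). Such shares were not particular to these lists. They were 22.2% for ubiquitin ligases and deubiquitinases, 22.5% for chromatin, 20.6% for mitosis and cell cycle and 28.8% for pluripotency regulators. Other lists had smaller ones, such as 5.71% for maternal-effect and oocyte genes. Of 114 splicing genes on their brightest probe set none passed, 27 were lower and 5 higher with an unadjusted p under 0.05, and the median was -0.21. Srsf10, a splicing regulator, was at 2250.4, 1979.6 and 1833 against 2878, 2468 and 3105 (-0.47, adjusted p = 0.14). Of 51 genes of Mediator and elongation, 16 (31.4%) were lower and 4 higher without overlap, and none passed on the brightest probe set. The gene with the smallest p in that list went the other way, since Med20, a Mediator subunit, was at 1346, 1511 and 1419 in Oct4-MO embryos and 708, 420.4 and 502 in uninjected embryos (1.40, adjusted p = 0.12). Med19 and Med8, of the same complex, had log2 differences of -0.84 and -1.36. Of 66 genes of RNA polymerases and general factors, 13 were lower and 3 higher without overlap, with Polr3e, a subunit of RNA polymerase III, at 1174, 857 and 819 against 1894, 1487 and 1478 (-0.77, adjusted p = 0.16). Of 70 genes of polyadenylation and decay, 15 were lower without overlap and 5 higher. Dcp1a, which takes part in the removal of the cap of mRNAs in decay, was among the higher ones, at 1085, 818 and 805 against 514, 537 and 509 (0.76, adjusted p = 0.31). The proteasome, with 44 genes, none passing, had 10 lower and 1 higher without overlap and a median of -0.26. The 1 higher gene was Psmc6, an ATPase of its regulatory particle, at 663, 555 and 675 against 337, 379.9 and 342.

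Maternal-effect and oocyte genes lay mostly on the higher side. Of 70 measured, none passed, but 25 (35.7%) were higher and 4 lower without overlap, the highest share of any list, and the median was 0.19 (0.15, 0.14 and 0.33 in the pairs). Zar1, a maternal factor needed at the passage from egg to embryo, was at 309, 302 and 297 in Oct4-MO embryos and 96.9, 62.3 and 61.6 in uninjected embryos (1.85, adjusted p = 0.12). Oas1c, an oocyte member of the oligoadenylate synthetase family, was at 1385, 1484 and 1748 against 600.2, 1009 and 721 (1.00, adjusted p = 0.22). Tle6 of the subcortical maternal complex was at 1270.1, 834 and 1229.7 against 374, 655 and 691, and Fmn2, a formin of the meiotic spindle, at 2201, 2397 and 2261 against 1359, 1471 and 1608. In each of these 4 genes the 3 Oct4-MO arrays lay above all 3 controls, and Zar1 was the most even in Oct4-MO embryos. Nobox, a homeobox gene of the oocyte, was at 397, 408 and 475 against 129, 371 and 87.6, with uninjected array 2 close to the Oct4-MO arrays. Dppa3, in the marker list above, was lower on all 3 Oct4-MO arrays than its 5932, 5823 and 5991 in the controls (-0.21, adjusted p = 0.23).

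Genes activated at the 2-cell stage showed no common direction. Of 38 measured, Trim43a fell, 4 were higher and 5 lower without overlap, and the median was 0.01. Sp110, a nuclear body protein, was at 936, 564 and 807 against 1249, 1254 and 1612 (-0.84, adjusted p = 0.26). Hspa1a, which encodes Hsp70, is transcribed soon after genome activation starts and has a near copy in Hspa1b. It was at 666, 521 and 683 against 385, 418 and 301 (0.74, adjusted p = 0.26), and it was the list's smallest p on the higher side. Zfp352, a zinc finger gene of this stage, overlapped, at 3713, 2838 and 3859 against 3029, 3393 and 3433.

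Pluripotency regulators split in direction. Of 59 measured, none passed, 8 were higher and 17 lower without overlap. On the lower side, Fgf4, a growth factor that Oct4 and Sox2 are known to activate in stem cells, was at 35.4, 14.3 and 20.9 in Oct4-MO embryos and 432, 172 and 101 in uninjected embryos (-2.47, adjusted p = 0.16). The controls of Fgf4 were uneven, and pair 1 held the highest of both groups. Rif1, a telomere and replication timing protein, was at 1336, 1290.5 and 1279 against 1986, 1726 and 2113 (-0.57, adjusted p = 0.12), and Sall4, a zinc finger partner of Oct4, at 1456, 885 and 845 against 1803, 1683 and 1977 (-0.81, adjusted p = 0.32). On the higher side, Sox2, the partner of Oct4 on DNA, was at 258, 397 and 228 against 100.5, 113 and 107 (1.30, adjusted p = 0.14) without overlap. Nanog, the homeobox factor of the pluripotent state, was at 70.8, 134 and 29.6 against 11.3, 36.3 and 7.91 (1.37, adjusted p = 0.30), and its groups overlapped. Tet1, which oxidizes methylated cytosine, was at 166, 59.4 and 58.1 against 252, 279 and 293, with Oct4-MO array 1 the highest of its group.

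Trophectoderm and lineage genes were more often higher. Of 43 measured, Sox1 rose, 10 (23.3%) were higher and 2 lower without overlap, and the median was 0.19. Those in the brighter part of the probe sets numbered 30. Hes5, a Notch target, was at 77.8, 671 and 256 in Oct4-MO embryos and 37.9, 6.51 and 4.11 in uninjected embryos, very uneven in the former (3.16, adjusted p = 0.12). Hoxa3, a homeobox gene, and Cdx2, the regulator of trophectoderm, had log2 differences of 1.90 and 0.55 (adjusted p = 0.32 and 0.50), and Cdx2 was dim, at 57.3, 34.6 and 33.8 against 22.4, 25.8 and 21.0. Gata4, a regulator of primitive endoderm, was one of the 2 on the lower side, at 243, 315 and 216 against 548, 372 and 461. Of the signalling genes, Hey1, another Notch target, was at 782, 952 and 1331 against 371, 579 and 458 (1.08, adjusted p = 0.12), and Bmpr1a, a BMP receptor, at 217, 211 and 155 against 632, 531 and 550.2 (-1.49, adjusted p = 0.14). Il17rd, an antagonist of FGF signalling, was at 209, 454 and 403 against 1219, 962 and 1019 (-1.60, adjusted p = 0.066). The 3 Oct4-MO arrays of Bmpr1a and Il17rd lay below all controls.

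Cell cycle and replication genes had medians below that of all genes. Of 131 genes of mitosis and cell cycle, Sfi1 rose, 27 were lower and 12 higher without overlap, with a median of -0.14. Stag2, a cohesin subunit, was at 449, 362 and 221 against 1148, 778 and 1089.8 (-1.54, adjusted p = 0.13), and Kif11, the kinesin of bipolar spindles, at 285, 271 and 175 against 803, 401 and 666. Ttk, a kinase of the spindle checkpoint, was on the higher side, at 443, 328 and 596 against 157, 234 and 157 (1.23, adjusted p = 0.21). Of 108 genes of DNA replication and repair, none passed, 16 were lower and 2 higher with an unadjusted p under 0.05. Without overlap 17 were lower and 6 higher. The lower share of 15.7% was near the 16.1% of the brightest class of probe sets. Mcm5, of the replicative helicase, was the clearest of the lower genes, at 521, 337 and 432 against 1406, 1199 and 1297 (-1.58, adjusted p = 0.065). Mcm6 of the same complex had a log2 difference of -0.49 (adjusted p = 0.24). Of 173 chromatin genes, none passed and 39 were lower without overlap against 14 higher, with a median of -0.07.

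Immediate early and stress response genes lay mostly on the higher side, and heat shock and unfolded protein genes did not. Of 48 immediate early and stress response genes, none passed, 39 lay above 0, 7 (14.6%) were higher and 1 lower without overlap, with a median of 0.17. Besides Jun, Ier3 and Gadd45g were higher without overlap, with Ier3 at 135, 283 and 200.4 against 43.5, 88.9 and 51.5. Gadd45g, a growth arrest gene, was at 77.5, 44.2 and 72.5 against 15.4, 12.9 and 12.4. Ddit3, which encodes the stress factor CHOP, was at 499, 650.0 and 844 against 254, 351 and 188 (1.29, adjusted p = 0.15). The heat shock proteins had a median of -0.05, and the list of the integrated stress and unfolded protein response one of -0.04. Of 48 interferon genes, 8 (16.7%) were higher and 3 lower without overlap, and 24 lay above 0, with Ifitm3, a membrane protein induced by interferon, at 706, 713 and 852 against 321, 392 and 468. Of this list 25 genes belonged to the brighter part. Of 49 genes of apoptosis, Apaf1 fell, and Pmaip1, the p53 target Noxa, was at 172, 135 and 105 against 81.3, 33.5 and 18.5 (1.46, adjusted p = 0.50). The 26 p53 targets, Apaf1 among them, had a median of -0.05.

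Metabolic and transport genes held single differences. Of 61 genes of glycolysis and the citric acid cycle, Gyg rose, and 12 were higher and 2 lower without overlap. Idh2, the mitochondrial isocitrate dehydrogenase, was on the lower side, at 728, 440.5 and 524 against 901, 784 and 1075, and Cs, citrate synthase, on the higher, at 2503, 1898 and 2148 against 1717, 1727 and 1479.6. Of 77 genes of the respiratory chain and its assembly, Ecsit fell, and the median was -0.14. Of 76 carriers, Slc1a1 fell, and Tfrc, the transferrin receptor, was at 689, 492 and 251 against 1428, 1227 and 1221 (-1.51, adjusted p = 0.12). Slc6a9, a glycine transporter that controls the volume of early embryos, was on the higher side, at 814, 792 and 814 against 290.0, 515 and 235 (1.26, adjusted p = 0.16). Among 27 small RNA genes, Piwil2, a PIWI protein, was at 195, 162 and 83.4 against 486, 471 and 370.4, and Pld6, a mitochondrial nuclease of piRNA production, at 146, 41.4 and 31.1 against 449, 322 and 385. The remaining lists (aminoacyl-tRNA synthetases, elongation factors, ubiquitin ligases, sterol metabolism, cilium genes, actin regulators) had medians between -0.14 and 0.02.

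**Figure D4:**
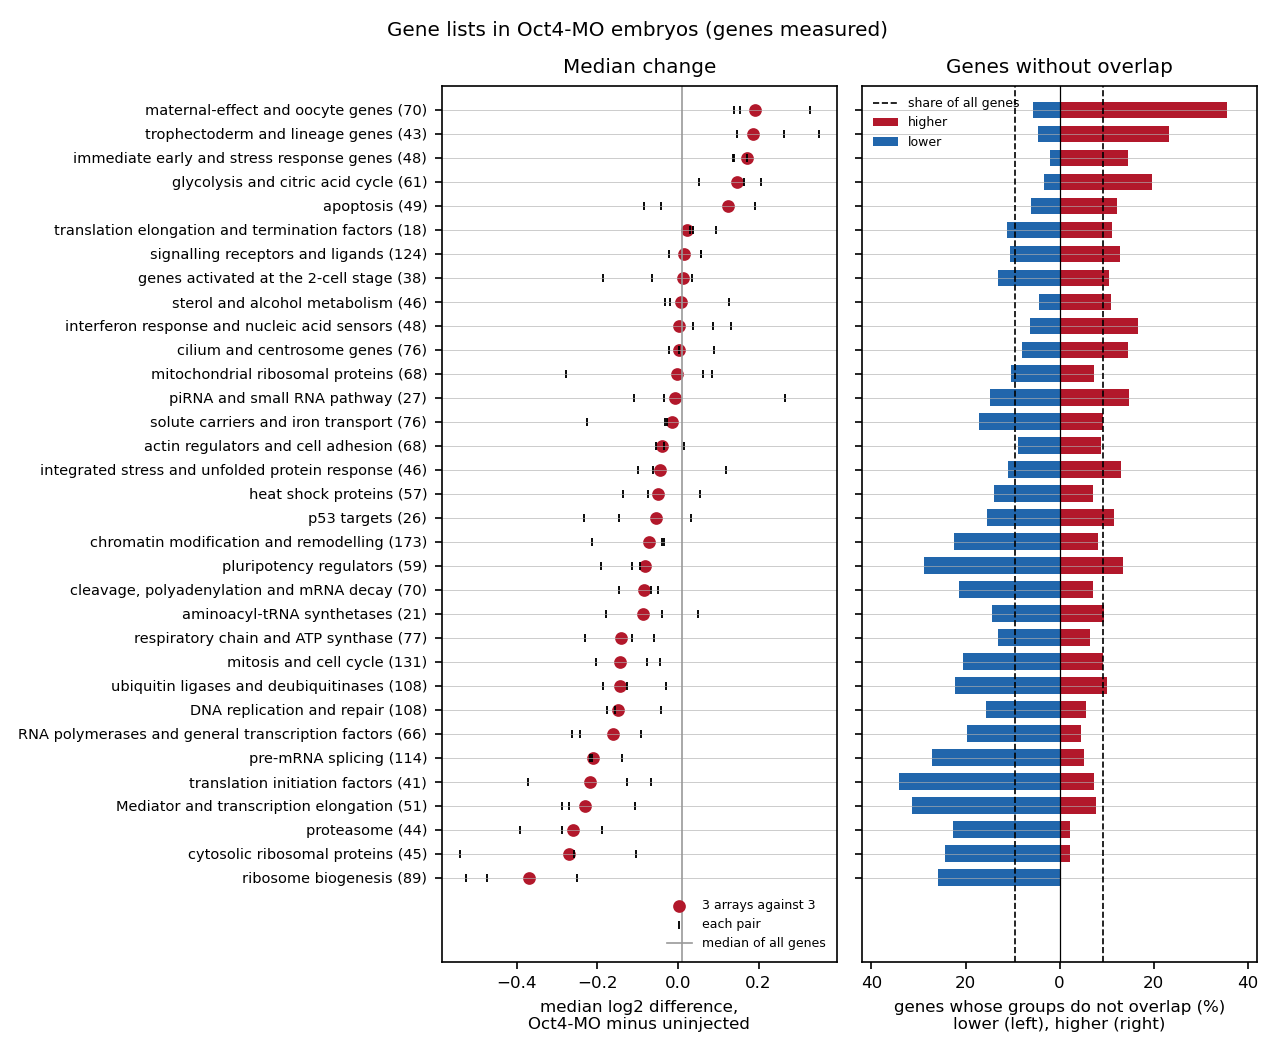
Gene lists in Oct4-MO embryos, with the number of genes measured in brackets. The left panel gives the median log2 difference over the 3 arrays of each group (circle) and in each pair (ticks), with the median of all genes as a line. The right panel gives the percent of genes lower (left) and higher (right) without overlap, with dashed lines at the shares of all genes (9.57 and 9.21%). Maternal-effect and oocyte genes reach 35.7% higher, and translation initiation factors 34.1% lower.

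Genes that the study picked for PCR on single embryos, and others it named from its gene chips, were chosen with these same arrays, so their counts are no independent evidence. Of 31 measured PCR genes, Eif3e fell, and 20 were lower and 2 higher without overlap, with a median of -0.72. Of 20 measured genes named on chips, none passed, 10 were lower and 8 higher with an unadjusted p under 0.05.

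Whether the Oct4-MO changes differed from those of the other morpholino was tested as a difference between the changes, since the experiments share no arrays. A difference in dose, noted above, cannot be told apart from one of target here. Over all probe sets 1 passed (0.00223%), a dim one of Sirt5, and 2988 did at an unadjusted p under 0.05 (6.65%). None of the 33 probe sets that passed in Oct4-MO embryos passed this test. Of the 20 that fell, all lay below 0 in Ccna2-MO embryos, where 46.7% of all and 49.0% of brighter probe sets did, with a median of -0.87 there against -1.93 in Oct4-MO embryos. Of these, 6, namely 2 of Eif3e, Slc1a1, Smim7, Usp22 and Larp4, fell in Ccna2-MO embryos too, as did 0.409% of all probe sets. Of the 13 that rose, 11 lay above 0 in Ccna2-MO embryos, but with a median of 0.25 against 1.96, and 3 rose there, 2 of Gyg and 1 of Fam133b, beside 0.338% of all probe sets. Of the 52 lower and 14 higher probe sets of the description by size, 51 and 13 had the same sign in Ccna2-MO embryos, with medians of -0.98 against -1.57 and 0.59 against 1.48, and the exceptions were Stag2 and Sfi1. Because these probe sets were selected for their Oct4-MO change, a smaller value in the other experiment is not evidence of a difference by itself.

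**Figure D5:**
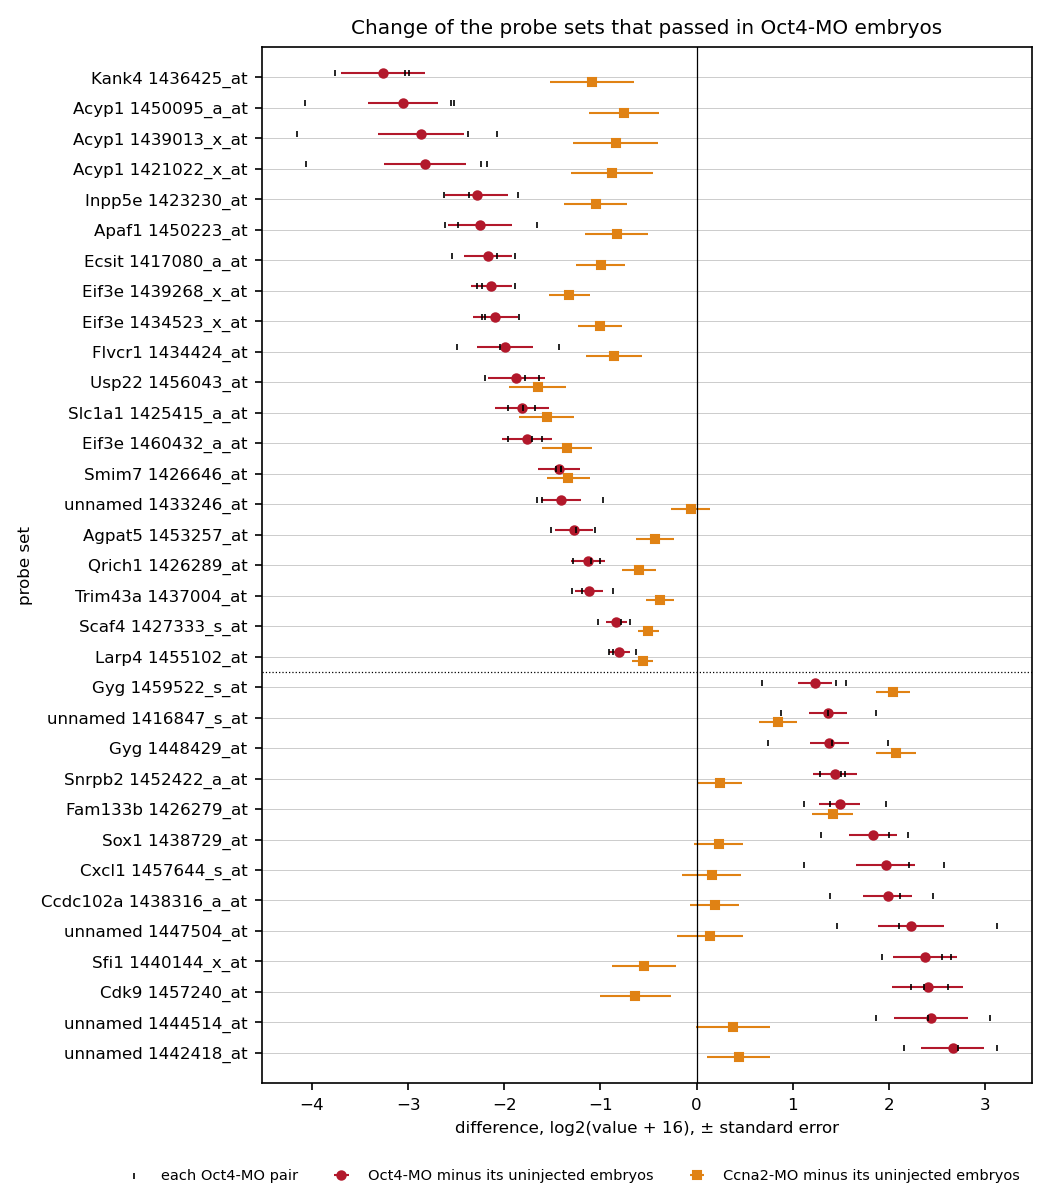
Log2 difference of each probe set that passed in Oct4-MO embryos (circles, with standard error), the value in each Oct4-MO pair (ticks) and the difference in Ccna2-MO embryos (squares, with standard error). The upper 20 fell and all of these have squares left of 0, and the squares of Sfi1 and Cdk9 lie left of 0 while their circles lie near 2.4.

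The dim probe set of Cdk9 and that of Sfi1 gave the widest separation between the experiments among the probe sets that passed. On the Ccna2-MO arrays Sfi1 was at 469, 269.9 and 593 and on their uninjected arrays at 496, 491 and 1006, levels near those of the uninjected embryos of the Oct4-MO experiment. The difference between the changes was 2.93 (standard error 0.47, adjusted p = 0.39), and 3.04 for Cdk9 (adjusted p = 0.39). Sox1 was at 18.4, 15.3 and 16.5 on the Ccna2-MO arrays and at 8.15, 16.9 and 11.4 on their controls, below every Oct4-MO array (difference 1.60, adjusted p = 0.39). Acyp1 was at 267, 351 and 335 against 595, 581 and 463, with the Ccna2-MO arrays between the Oct4-MO arrays and the controls (difference -2.30, adjusted p = 0.41). Gyg went further in Ccna2-MO embryos, at 2716, 3189.8 and 2681 against 641, 736 and 665 (difference -0.82, adjusted p = 0.64). Smim7 was nearly equal, with log2 differences of -1.43 and -1.33. Med20 had log2 differences of 1.40 and -0.50 (adjusted p of the difference = 0.39), and Sox2 of 1.30 and -0.37 (adjusted p = 0.52).

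The lists read side by side as follows. Ribosome biogenesis had a median of -0.37 after Oct4-MO and -0.65 after Ccna2-MO, the cytosolic ribosomal proteins -0.27 and -0.31, and the initiation factors -0.22 and -0.17. Maternal-effect and oocyte genes had medians of 0.19 and 0.31. Mediator and elongation genes had medians of -0.23 and -0.07, and trophectoderm and lineage genes 0.19 and 0.14. The difference between the experiments was not tested for lists.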

How the data were processed

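RNA was isolated with the Picopure kit, amplified in 2 rounds with WT-Ovation Pico and hybridised to Affymetrix Mouse 430 2.0 arrays. The authors deposited 1 normalized intensity for each probe set and array, made with dChip, whose version and options no source used here gives, so normalization could not be repeated. Of 45001 probe sets, 64 controls were left out. Platform annotation gave 34849 of the other 44937 probe sets 1 gene symbol, 928 several and 9160 none. A gene was represented by its brightest probe set. Differences in log2(value + 16) were tested with limma (version 3.58.1, R 4.3.3) on 4 group means over all 12 arrays, with an intensity trend and Benjamini-Hochberg adjustment over all probe sets. The script was tested on simulated data. Array numbers pair the samples, because the labels take injected and uninjected embryos from the same pool, and deviations from the group means correlated within pairs at 0.083, 0.031 and 0.0091.

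Every gene that passed is named. Others come from the description by size, some of them beyond its 12 brightest in each direction. The rest are up to 4 in each list with the smallest p, Pou5f1, markers and genes the study chose. Not all genes of these sets are printed. The comparison, the lists and this rule were chosen with earlier results of these data known. The study lists 3 experiments for its Oct4-MO gene chips but gives no days for them, so p-values measure the spread between these pools. The number of arrays limits the precision. Promoter sequences are from RefSeq. Alternatives were 12 fits that leave out an array and 11 other settings.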

Additional observations from a re-analysis of the deposited data

Results flagged for a closer look

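The only probe set that passed the test of the difference between the 2 morpholinos was a dim one of Sirt5, a mitochondrial deacylase. It was at 7.08, 7.17 and 12.6 on the Oct4-MO arrays against 1.73, 1.94 and 2.27 on their uninjected arrays, and at 2.01, 1.58 and 1.74 on the Ccna2-MO arrays against 26.3, 40.8 and 32.9 on theirs. The changes differed by 1.93 on the log2(value + 16) scale (adjusted p = 0.024, limma), and the direction was opposite in the 2 experiments. Most of the size comes from the Ccna2-MO experiment, all Oct4-MO values lie under 16, and the difference did not pass with the pairs as a block.

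Control probe sets of the arrays for mouse repeats were outside the comparisons. A probe set of the B2 repeat, a short interspersed element, read 8086, 7773 and 7846 in Oct4-MO embryos against 7535, 7451 and 7593 in uninjected embryos, a mean log2 difference of 0.070 without overlap. The other B2 probe set read 1418, 1654 and 1350.5 against 1123, 1045 and 1055, a mean log2 difference of 0.45 without overlap. In Ccna2-MO embryos these differences were -0.051 and 0.11. The B1 probe set overlapped between the groups, with a difference of -0.0049. None of the 3 was tested.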

How the results depend on the processing

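The replicate block (pairs) left 4 probe sets in place of 33 and 0 in place of 1 differed between the morpholinos (3285 at an unadjusted p under 0.05). Fitting only the 6 arrays gave 0 (4933 unadjusted), while no intensity trend gave 16 and adding 64 before log2 gave 18. A plain unpaired t-test on log2 values also gave 0 (4292 unadjusted). It is not the study's method, which ranked genes by fold change and an unpaired t-statistic with a false discovery rate from permutations. That method was not repeated here. Testing brighter probe sets alone gave 92, array weights 257 and all 6 uninjected arrays as controls 452 (123 higher, 329 lower, 72.8% lower against 60.6%). Adding 1 gave 29, quantile normalization 28 and median centring 36, with 27, 27 and 32 of the 33 kept. Leaving out 1 array gave 0 to 87, with no call kept without uninjected array 1 or 3 (3061 and 2999 unadjusted). The 33 calls kept their direction in the 23 alternatives (29 of them could be tested among brighter probe sets), and the causes of these shifts were not tested. For the difference between morpholinos, no trend, 64 added and brighter probe sets alone gave 0 (3064, 2873 and 1816 unadjusted), the other settings 1, and leaving out 1 array 0 to 3. The Sirt5 probe set turned to -0.26 in Oct4-MO embryos against all 6 uninjected arrays. Of 40 list medians, 5, 4 and 7 changed sign with averaged probe sets, quantile normalization and median centring, among lists whose median lay within 0.09 of 0, such as heat shock proteins and aminoacyl-tRNA synthetases. Probe sets under 16, about 4 in 10, allow no firm size of a difference.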
